A study of Mus musculus with 4 samples.

Results

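Thbs1 and Vegfa high monocytes were a small set of myeloid cells of the tumour that carried transcripts of thrombospondin-1 and of vascular endothelial growth factor A together. They were chosen by their own UMI counts (a UMI marks 1 captured RNA molecule): at least 5 of Lyz2, a lysozyme gene of myeloid cells, at least 2 of Thbs1, at least 1 of Vegfa, at most 4 of the interferon-induced chemokine gene Cxcl10, 0 of Ace, under 10 UMIs of C1qa, C1qb and C1qc together per 10000, at most 1 of Cd3d, Cd3e and Cd3g together and at most 1 of Cd209a. This left 402 of 39906 cells, 96 in cKO-1, 133 in cKO-2, 120 in WT-1 and 53 in WT-2. Since Thbs1 and Vegfa chose the cells, the levels of these genes, and every gene set against the remaining monocytes, are given as a description without a test.

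The study profiled CD45-positive cells, the immune cells of a tumour, sorted from MC38 tumours by single-cell RNA sequencing with a 3' tag kit. MC38 is a mouse colorectal tumour line, of which 100000 cells were injected under the skin of 8-week-old mice. The compared mice were Trim25 conditional knockouts (cKO, 2 libraries) and WT mice (2 libraries), where Trim25 encodes a ubiquitin ligase. The series title places the knockout in T cells. Neither the Cre line or its promoter, nor the deleted exons, nor the number of mice per library is given in the sources used here, so each p-value reflects the spread between libraries, which may be technical.

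Thrombospondin-1 is a secreted matrix protein that inhibits angiogenesis through CD36 and binds CD47, while VEGF-A is the main inducer of vessel growth and a classical target of the hypoxia-inducible transcription factors. Inflammatory monocytes leave the blood through CCR2, enter tumours and can take on a hypoxic, wound-healing programme there, with cyclooxygenase-2 (encoded by Ptgs2) as the enzyme that starts prostaglandin E2 synthesis. Cd14 encodes the co-receptor for lipopolysaccharide, and Clec4e encodes Mincle, a lectin receptor for glycolipids and for dying cells.

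Depth over the kept cells was 96221651 to 126110578 UMIs per library, with 8205, 9387, 10222 and 12092 cells in cKO-1, cKO-2, WT-1 and WT-2. Trim25 itself was at 58.5 and 56.8 CPM in cKO-1 and cKO-2, against 69.3 and 72.9 CPM in WT-1 and WT-2 in T cells (at least 4 Cd3d, Cd3e and Cd3g UMIs and fewer than 5 of Lyz2). Since the deleted exons are unknown and tags lie at the 3' end, these values do not test the deletion. Of the 402 cells, 2 had a barcode also seen in another library and 0 shared it with a Thbs1 and Vegfa high cell there. Between the libraries' sums over these cells, the chi-square per degree of freedom was 4.20 to 5.95, where random sampling of UMIs alone gives about 1. Uneven counts between cells also raise this value, so it does not tell differences between libraries from differences between cells.

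The name monocyte was borne out by the markers. Ly6c2, a surface antigen of inflammatory monocytes, had a UMI in 92.7, 97, 95 and 92.5% of the Thbs1 and Vegfa high cells of cKO-1, cKO-2, WT-1 and WT-2, and the chemokine receptor gene Ccr2 in 99.0, 97.0, 92.5 and 92.5%. In T cells of the same libraries Ly6c2 had a UMI in 64.6, 65.5, 58.1 and 62.8%, and Ccr2 in 50.8, 49.2, 44.7 and 49.0%. The T cells had median depths of 8376, 8309, 7186 and 7229 UMIs, against 14363, 12643, 11409.5 and 11353 UMIs in the Thbs1 and Vegfa high cells of the same libraries. The sum of 10 classical monocyte markers was 17815, 19064, 18578 and 16029 CPM (counts per 1000000 UMIs of the summed cells). It was close to the 15877, 18267, 18650.1 and 18750.1 CPM of the other Cxcl10-low monocytes, which passed the same gates but had fewer than 2 Thbs1 UMIs or no Vegfa UMI. The 10 markers include Lyz2, which the gates required in both sets, so this sum was partly fixed by the choice of the cells.

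Neutrophil markers and tumour or fibroblast-like markers were low but not absent, while T and NK cell markers summed to more than either. The T and NK cell sum was lower than in the other Cxcl10-low monocytes in cKO-2 and WT-1, but not in cKO-1 and WT-2. The 10 neutrophil markers summed to 64.1, 56.2, 79 and 91.9 CPM in the Thbs1 and Vegfa high cells of cKO-1, cKO-2, WT-1 and WT-2, with Retnlg, Camp and Ngp at 0, against 496, 105, 264 and 360.4 CPM in the other Cxcl10-low monocytes. The 12 T and NK cell markers summed to 703, 742, 333 and 1796 CPM, against 697, 1410.2, 948 and 1759.6 CPM, and at least 2 UMIs of other-lineage markers were seen in 55.2, 53.4, 39.2 and 54.7% of the cells, against 57.2, 55.8, 44.2 and 57.2%. The 8 tumour or fibroblast-like markers summed to 8.55, 12, 5.45 and 45.3 CPM, with Krt8 and Krt18 at 0. The part of these transcripts in the results was not tested beyond the values given beside each.

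The share of Thbs1 and Vegfa high monocytes among all Lyz2-high, C1q-low cells was higher in cKO-1 and cKO-2 than in either WT library. It was 4.66% of 2058 cells in cKO-1 and 4.59% of 2897 in cKO-2, against 3.28% of 3661 in WT-1 and 1.31% of 4060 in WT-2. The exact 95% intervals, which cover counting error only, were 3.79 to 5.67, 3.86 to 5.42, 2.72 to 3.91 and 0.979 to 1.70%. The cKO libraries were close to each other, while the WT libraries differed from each other by more than WT-1 differed from either cKO library, and the groups did not overlap. The means were 4.63 ± 0.0522% in cKO and 2.29 ± 1.39% in WT (SD, n = 2 each). The difference of 2.34 percentage points had p = 0.333 in a two-sided exact permutation test, the smallest p that 2 against 2 libraries can give. Without WT-2 the difference was 1.35 points and without WT-1 3.32 points.

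**Figure D1:**
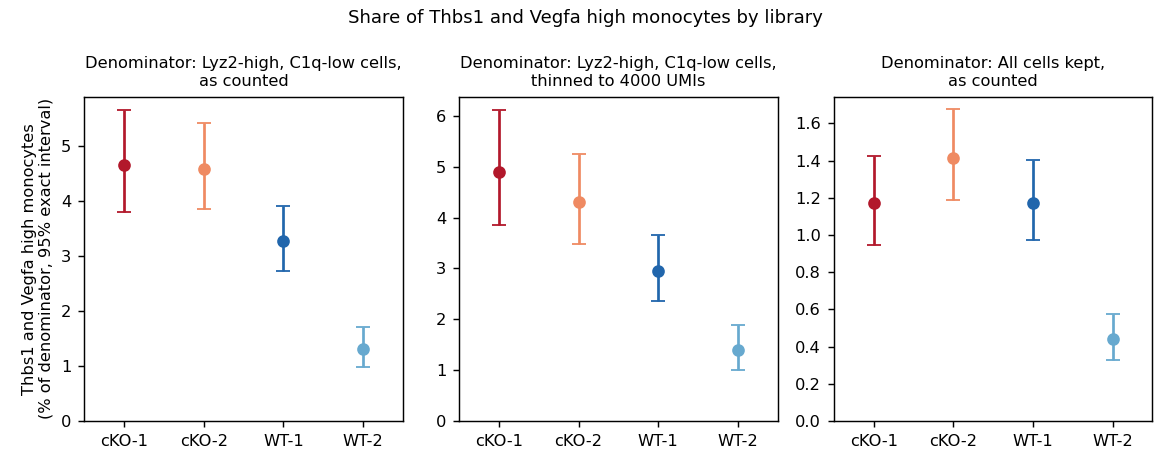
Share of Thbs1 and Vegfa high monocytes (y axis, % of the denominator named above each panel) in each library (x axis), with exact 95% binomial intervals. The cKO libraries sit above both WT libraries with Lyz2-high, C1q-low cells as denominator, as counted and after thinning, and overlap WT-1 with all cells as denominator.

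Depth and the denominator both moved with the genotype. Median depth of the Lyz2-high, C1q-low cells was 14377 and 13095 UMIs in cKO-1 and cKO-2, against 11063 and 11051 UMIs in WT-1 and WT-2. Cells of at least 4000 UMIs were also thinned to 4000 UMIs, and all gates were applied again to the thinned counts. The share was then 4.89 and 4.30% in cKO-1 and cKO-2, against 2.95 and 1.40% in WT-1 and WT-2, with the cKO libraries again above both WT libraries. With all kept cells as denominator it was 1.17 and 1.42% in cKO-1 and cKO-2, against 1.17 and 0.438% in WT-1 and WT-2 (exact permutation p = 0.667), and the groups overlapped. Lyz2-high, C1q-low cells were themselves 25.1 and 30.9% of the cells in cKO-1 and cKO-2, against 35.8 and 33.6% in WT-1 and WT-2.

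Some of the single gates also differed between the libraries. Of the Lyz2-high, C1q-low cells, 27.4 and 25.5% carried Vegfa in cKO-1 and cKO-2, against 18.5 and 11% in WT-1 and WT-2. At least 2 Thbs1 UMIs were seen in 36.4 and 34.1% in cKO-1 and cKO-2, against 27 and 21.8% in WT-1 and WT-2. The gate on Ace, a gene of non-classical monocytes, was passed by 79.7 and 79.9% in cKO-1 and cKO-2, against 74.0 and 67.9% in WT-1 and WT-2. For these 3 gates the groups did not overlap (exact permutation p = 0.333 each), while the gates on Cxcl10, Cd3 and Cd209a overlapped between the genotypes (p = 1 each). T cells had the same order for Vegfa, at 7.09 and 9.21% in cKO-1 and cKO-2, against 6.31 and 4.61% in WT-1 and WT-2. At least 2 Thbs1 UMIs were seen in 1.74 and 1.13% of T cells in cKO-1 and cKO-2, against 0.701 and 0.649% in WT-1 and WT-2. Both kept this order after thinning, while B cells overlapped. The part of a shift shared by whole libraries was not tested.

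Cells with both transcripts were not limited to the Cxcl10-low monocytes. As a share of Cxcl10-low monocytes they were 12.1, 14.5, 10.2 and 4.20% in cKO-1, cKO-2, WT-1 and WT-2, and as a share of Cxcl10-high monocytes 17.4, 15.8, 10.9 and 7.58%. After thinning to 4000 UMIs these shares were 8.94, 9.54, 6.86 and 3.37% of Cxcl10-low and 9.09, 9.24, 6.77 and 3.68% of Cxcl10-high monocytes. Cxcl10-high monocytes had the higher share in 4 of 4 libraries as counted, and in 2 of 4 after thinning. Thinning dropped cells under 4000 UMIs and applied all gates again to the thinned counts. Cxcl10-high monocytes thereby went from 631, 1080, 1276 and 1056 cells to 440, 812, 1005 and 896. The shares before and after thinning thus do not compare the same cells. Among macrophages with C1q transcripts the shares were 6.10, 7.36, 3.78 and 2.91%, and 3.74, 5.39, 2.65 and 1.41% after thinning. In T cells, which should lack both transcripts together, the shares were 0.327, 0.282, 0.263 and 0.195%, from 3 cells in each library. In B cells they were 0, 0, 0 and 0.297%, the last from 1 cell. The cKO libraries were above the WT libraries in all 3 myeloid sets, thinned or not, each with an exact permutation p of 0.333. T cells as counted had the same order, but with 3 such cells in each library it reflected only the number of T cells. After thinning T cells also had this order, at 0.147 and 0.331% in cKO-1 and cKO-2, against 0 and 0.0859% in WT-1 and WT-2. These thinned shares came from 1, 3, 0 and 1 cells. B cells did not have this order.

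**Figure D2:**
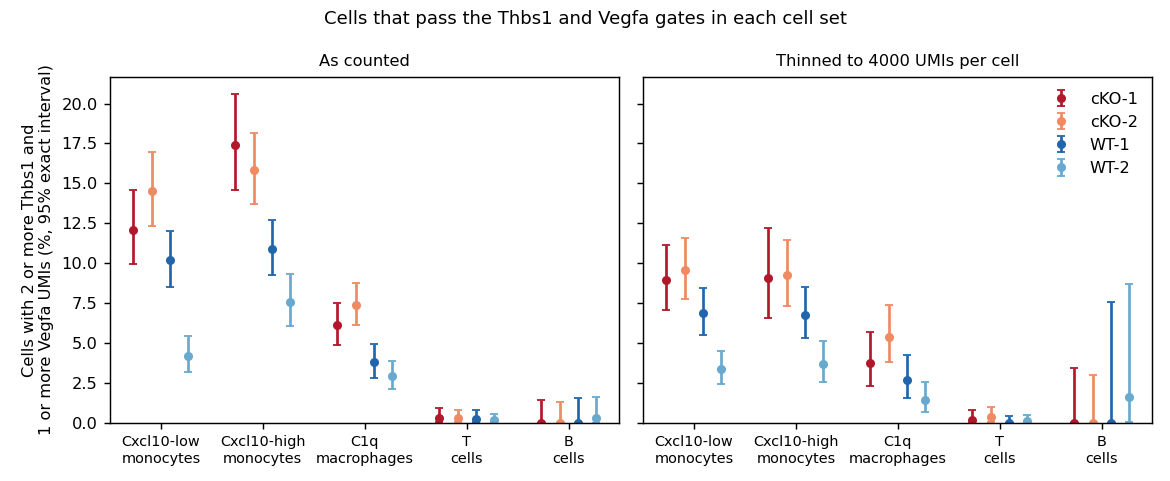
Cells with at least 2 Thbs1 and at least 1 Vegfa UMI (y axis, % with exact 95% binomial intervals) by cell set (x axis) and library (colour), as counted on the left and thinned on the right. Thinned shares of Cxcl10-low and Cxcl10-high monocytes lie between 3.37 and 9.54% and T cells at or under 0.331%. B cells lie at 0 except in WT-2, where 1 cell gives 0.297% as counted and 1.61% thinned.

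Thbs1 and Vegfa transcripts occurred together in the same cells. After thinning, Vegfa was seen in 25.5, 28, 26.3 and 15.7% of the Cxcl10-low monocytes with at least 2 Thbs1 UMIs in cKO-1, cKO-2, WT-1 and WT-2, against 13, 13.2, 9.40 and 3.77% of those with fewer. The Thbs1-rich cells had the higher share in 4 of 4 libraries.

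Part of all Thbs1, Vegfa and Ptgs2 UMIs lay in the 402 cells, which the gate chose for the first pair of genes. The 402 cells, 1.17, 1.42, 1.17 and 0.438% of the cells of cKO-1, cKO-2, WT-1 and WT-2, held 15.2, 14.2, 16.5 and 5.83% of all Thbs1 UMIs of those libraries. They held 9.93, 9.45, 13.6 and 7.05% of the Vegfa UMIs and 10.1, 8.09, 10.7 and 4.06% of the Ptgs2 UMIs, with WT-2 lowest for all 3 genes. The other Cxcl10-low monocytes held 17.3, 11.8, 15.4 and 19.5% of the Thbs1 UMIs, more than the Thbs1 and Vegfa high cells in cKO-1 and WT-2. Cxcl10-high monocytes held 33.0, 39.1, 40.3 and 30.7% of the Thbs1 UMIs.

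The gate drew a line through a graded range. Cells just inside on Thbs1, with 2 UMIs and Vegfa present, numbered 11, 14, 5 and 5 in cKO-1, cKO-2, WT-1 and WT-2 and had 409, 374, 284 and 119.7 CPM of Ptgs2. Those just outside, with 1 Thbs1 UMI and Vegfa present, numbered 23, 17, 12 and 11 and had 355, 208, 86.1 and 21.5 CPM. On the Vegfa side, cells with 1 Vegfa UMI had 685, 483, 700.1 and 624 CPM of Ptgs2, and cells with enough Thbs1 but 0 Vegfa UMIs had 434, 568, 293 and 317 CPM. Thbs1 and Vegfa high cells with 5 or more Thbs1 UMIs were 79, 112, 106 and 41 of the cells and had 2136, 1363, 1445 and 895 CPM of Ptgs2.

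Thbs1 lies on chromosome 2 (118111876 to 118127133, plus strand), Vegfa on chromosome 17 (46016993 to 46032369, minus strand), Ptgs2 on chromosome 1 (150100031 to 150108227, plus strand) and Clec4e on chromosome 6 (123281789 to 123289870, minus strand), all on GRCm38, the build also called mm10. Thbs1 was at 2831, 2187, 2622 and 1572 CPM in the Thbs1 and Vegfa high cells of cKO-1, cKO-2, WT-1 and WT-2, against 502, 372, 351 and 338 CPM in the other Cxcl10-low monocytes. Vegfa was at 552, 431, 521 and 316 CPM, against 55.4, 46.4, 38.9 and 14.5 CPM. A cell held a median of 30.5, 18, 22 and 11 Thbs1 UMIs and of 5, 3, 3 and 2 Vegfa UMIs in the 4 libraries, with a highest single cell of 277 Thbs1 UMIs in cKO-1.

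The other 3 marker genes, which the gates did not use, were higher in 4 of 4 libraries. Ptgs2 was at 1792, 1201, 1345 and 827 CPM in the Thbs1 and Vegfa high cells of cKO-1, cKO-2, WT-1 and WT-2, against 309.6, 321, 194 and 212 CPM in the other Cxcl10-low monocytes, a median ratio of 4.74. Cd14 was at 693, 594, 483 and 454 CPM, against 278, 284, 208 and 226 CPM (2.2-fold). Clec4e was at 538, 368, 311 and 397 CPM, against 209, 176, 162 and 197 CPM (2.05-fold). For each of the 3 genes the lowest library of the Thbs1 and Vegfa high cells was above the highest library of the others. Ptgs2 had a UMI in 71.9, 66.2, 65.8 and 69.8% of the Thbs1 and Vegfa high cells, against 35, 33.1, 22 and 22.2% of the others and 11.5, 10.5, 5.35 and 5.19% of T cells, and in 66.3, 57.1, 57.8 and 56.5% of the Thbs1 and Vegfa high cells after thinning.

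**Figure D3:**
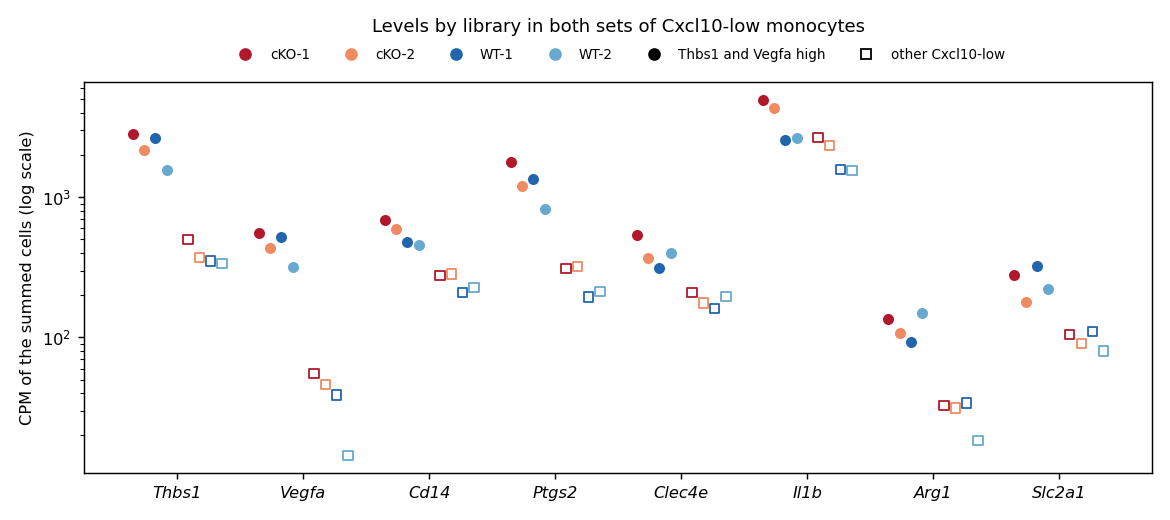
Level of 8 genes (y axis, CPM of the summed cells, log scale) in Thbs1 and Vegfa high monocytes (filled circles) and in the other Cxcl10-low monocytes (open squares), 1 symbol per library. Thbs1 and Vegfa set the gate, and in Ptgs2, Cd14, Clec4e, Il1b, Arg1 and Slc2a1 the filled circle of each library lies above its open square.

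Over all genes, more were lower than higher in the Thbs1 and Vegfa high cells than in the other Cxcl10-low monocytes. Among 5760 genes of a mean level of at least 20 CPM, 15.3% were higher and 29.4% lower in 4 of 4 libraries, and the median log2 ratio was -0.11. The highest median ratio outside the gates was that of Hilpda, which encodes a hypoxia-induced inhibitor of triglyceride breakdown, at 279, 143, 172 and 129 CPM in the Thbs1 and Vegfa high cells of cKO-1, cKO-2, WT-1 and WT-2, against 44.7, 33.1, 25.8 and 25.7 CPM in the others. Gpnmb, a glycoprotein gene of lipid-laden phagocytes, was at 119, 69.3, 107 and 206 CPM, against 38.4, 12.6, 20.2 and 24.3 CPM. Every library was higher for both genes. T cells also carried Hilpda, with a UMI in 31.7, 33.6, 26.7 and 22.9% of them, against 52.1, 32.3, 40.0 and 35.8% of the Thbs1 and Vegfa high cells.

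Others of the 25 leading genes had lower ratios than Hilpda. Abca1, which exports cholesterol, was at 119, 69.9, 98.8 and 69.9 CPM in the Thbs1 and Vegfa high cells of cKO-1, cKO-2, WT-1 and WT-2, against 24.7, 21, 24.8 and 9.06 CPM. Cxcl2, a neutrophil attractant, was at 1196, 479.7, 553 and 529 CPM, against 278, 175, 166 and 106 CPM, and Osm, the cytokine oncostatin M, at 1043, 903, 1010.4 and 1056 CPM, against 371, 502, 398 and 355 CPM. These genes did not overlap between both cell sets. Clec4d, which encodes a partner receptor of Mincle, had a median ratio of 3.2, the signalling adaptor gene Gab1 4.49, the calcium channel gene Cacna1d 3.63, the glycosyltransferase gene B3gnt5 3.07 and Gpat3, of triglyceride synthesis, 3.04. Ier3, an early response gene, had 2.88, Mxi1, a Myc antagonist, 2.86, Fnip2, a partner of folliculin, 2.76, Rhov 2.87, Snx24 2.88, Gas2l3 3.06 and Gm13986 2.7. Gas2l3 and Ndrg1 were close to the others in cKO-2, at 25.1 against 21.1 CPM and 76.4 against 63.8 CPM.

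Among the 15 genes with the lowest ratios, S100a9, a subunit of the neutrophil protein calprotectin, was at 1.43, 0, 0 and 1.29 CPM in the Thbs1 and Vegfa high cells of cKO-1, cKO-2, WT-1 and WT-2, against 191, 19.7, 94.1 and 132 CPM in the others. S100a9 had a UMI in 2.08, 0, 0 and 1.89% of the Thbs1 and Vegfa high cells, against 4.30, 0.383, 2.36 and 3.31% of the others. The level among the others thus came from few cells. S100a8, Retnlg and the granzyme gene Gzmd were also low, with median ratios of 0.203, 0.0348 and 0.112. Adgre4, a receptor gene of non-classical monocytes, had 0.288, Bcl11a, a transcription factor of dendritic cells and lymphocytes, 0.315, Dpp4 0.332, Hpgd, which breaks down prostaglandins, 0.195, Mmp12, macrophage elastase, 0.238 and Klra7, a natural killer receptor gene, 0.237. The remaining genes were Gm15987, BC035044, Hgsnat, Chn2 and Tbc1d4, at ratios of 0.29 to 0.367.

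**Figure D4:**
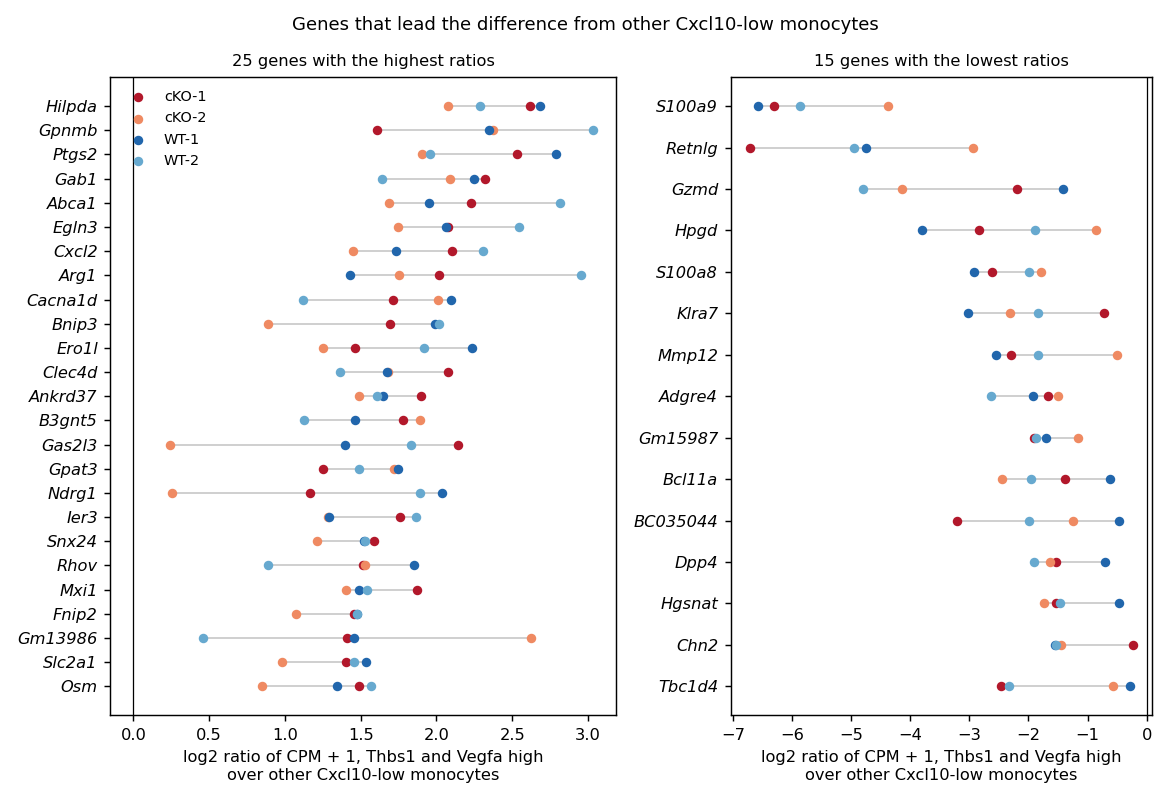
Log2 ratio of CPM + 1 (x axis), Thbs1 and Vegfa high over other Cxcl10-low monocytes, for the 25 genes with the highest and the 15 with the lowest median ratio (y axis), 1 point per library. Points of all libraries lie on the same side of 0 by the choice of the genes, Hilpda spans the highest median and Gas2l3 and Ndrg1 lie near 0 in cKO-2.

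The list of glycolysis and hypoxia response genes was the most uniform. Of its 28 genes that reached 20 CPM, 26 were higher in 4 of 4 libraries and 0 lower, with a median log2 ratio of 0.78 beside -0.11 for all genes. Egln3, a prolyl hydroxylase that marks hypoxia-inducible factors for decay, was at 162, 105, 165 and 101 CPM in the Thbs1 and Vegfa high cells of cKO-1, cKO-2, WT-1 and WT-2, against 37.8, 30.7, 38.6 and 16.5 CPM. Bnip3, a mitophagy receptor gene, was at 351, 174, 360.4 and 268 CPM, against 108, 93.2, 89.9 and 65.3 CPM, and Ero1l, an oxidase of protein folding in the endoplasmic reticulum, at 515, 299, 437 and 318 CPM, against 187, 125, 92 and 83.4 CPM. The lowest library of the Thbs1 and Vegfa high cells lay above the highest of the others in each of these. Slc2a1, the glucose importer GLUT1, was at 281, 179.5, 322 and 221 CPM, against 105, 90.5, 110.2 and 80.1 CPM, and the lactate exporter gene Slc16a3 at 149.7, 118, 121 and 82.8 CPM, against 65.5, 57.8, 51.2 and 44.4 CPM. Ankrd37 had a median ratio of 3.09, Ndrg1 2.89, the hexokinase gene Hk2 2.14 and Pfkfb3, which drives glycolysis, 2.07. The enzymes of the pathway's trunk were higher by less, with 1.77 for Pgk1, 1.58 for Ldha, 1.39 for Gapdh and 1.46 for Pkm. Hif1a, the transcription factor subunit itself, had 1.61. Pfkfb4 and Pdk1 were mixed between libraries.

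Since most hypoxia response genes of the list were higher together, the promoters of 3 of the leading ones are shown, from RefSeq on GRCm38.p6, from 250 bases before to 50 after the transcription start. Capitals mark the letters ACGTG or their reverse complement CACGT, a form of the core bound by hypoxia-inducible factors and by other basic helix-loop-helix proteins. The form GCGTG of the core was neither marked nor counted.
Egln3 promoter, chr12:54203825-54204124, minus strand: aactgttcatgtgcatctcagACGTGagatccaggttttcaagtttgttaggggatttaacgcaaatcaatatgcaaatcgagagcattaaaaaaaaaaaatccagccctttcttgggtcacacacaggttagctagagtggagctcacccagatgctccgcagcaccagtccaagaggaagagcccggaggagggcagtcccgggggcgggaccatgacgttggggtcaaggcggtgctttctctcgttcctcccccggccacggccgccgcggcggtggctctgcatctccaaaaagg
Bnip3 promoter, chr7:138909457-138909756, minus strand: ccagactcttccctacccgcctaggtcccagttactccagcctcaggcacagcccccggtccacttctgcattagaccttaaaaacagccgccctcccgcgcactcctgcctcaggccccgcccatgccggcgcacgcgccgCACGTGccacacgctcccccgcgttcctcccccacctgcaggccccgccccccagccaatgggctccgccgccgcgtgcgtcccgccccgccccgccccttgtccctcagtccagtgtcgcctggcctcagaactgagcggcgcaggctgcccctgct
Ero1l promoter, chr14:45318523-45318822, minus strand: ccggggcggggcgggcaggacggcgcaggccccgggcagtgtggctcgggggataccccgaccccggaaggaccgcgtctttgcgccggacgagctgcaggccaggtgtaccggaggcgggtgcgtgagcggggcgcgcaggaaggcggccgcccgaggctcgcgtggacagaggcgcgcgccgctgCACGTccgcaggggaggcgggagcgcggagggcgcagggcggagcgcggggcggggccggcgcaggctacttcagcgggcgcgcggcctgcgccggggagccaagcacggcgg
Egln3 held 1 match, Bnip3 2 that overlap on opposite strands in a single CACGTG, and Ero1l (Ero1a in RefSeq) 1. The first listed promoter of Hilpda held 0 matches of the marked form, though it holds GCGTG. Of the 30 glycolysis and hypoxia genes with a listed promoter, 18 held a match in this window (60.0%), as did 9 of 21 of the 25 leading genes (42.9%), beside 19.7% of 27025 genes. A match is a description of the letters and not a binding site.

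Inflammatory mediators were higher in most but not all members of their list. Of 20 genes, 13 were higher in 4 of 4 libraries and 1 lower (Tnfaip2, 0.88-fold), with a median log2 ratio of 0.66. Il1b, the cytokine interleukin-1 beta, was at 4920.5, 4345, 2573 and 2661 CPM in the Thbs1 and Vegfa high cells of cKO-1, cKO-2, WT-1 and WT-2, against 2671, 2333, 1572 and 1540.4 CPM. Il1a was at 170.3, 67.1, 47.7 and 44 CPM, against 35.1, 52.6, 32.7 and 16.2 CPM. In each library the Thbs1 and Vegfa high cells were above the others, while the highest level of the others, in cKO-1, reached the lower levels of the Thbs1 and Vegfa high cells in WT for Il1b. Ccrl2, a chemerin-binding receptor, had a median ratio of 2.01, the inflammasome gene Nlrp3 1.7, Tnfaip3 and Nfkbia, inhibitors of NF-kappa B, 1.73 and 1.67, and Ccl2, the ligand of CCR2, 1.5. Tnf, Ccl3 and Ccl4 were mixed.

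Angiogenic and matrix factors other than Thbs1 and Vegfa were a divided list: of 10 genes that reached 20 CPM, 6 were higher in 4 of 4 libraries and 1 lower, with a median log2 ratio of 0.40. Fn1, fibronectin, was at 1394, 1459, 1253 and 1013 CPM in the Thbs1 and Vegfa high cells of cKO-1, cKO-2, WT-1 and WT-2, against 875, 927, 965 and 789 CPM. F10, coagulation factor X, was at 279, 185, 281 and 182 CPM, against 119, 124, 133 and 129.6 CPM, and Plaur, the urokinase receptor, at 509.6, 406, 335 and 335 CPM, against 289.9, 279.7, 259 and 262 CPM. All libraries were higher in these 3 genes. Mmp19 had a median ratio of 1.77, F13a1 1.35 and Tgfbi 1.21. The lower member was Mmp12. Other vessel growth factors were scarce: Adm was at 5.7, 3.27, 5.45 and 1.29 CPM and Pgf at 0.713, 1.09, 0 and 0 CPM, and Ereg was listed at 0.

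Pattern recognition and scavenger receptors held 7 of 12 genes higher in 4 of 4 libraries and 0 lower, with a median log2 ratio of 0.59. Besides Cd14, Clec4e and Clec4d these were Tlr2 (1.53-fold), Tlr4 (1.28-fold) and the scavenger receptors Msr1 (1.48-fold) and Olr1 (1.68-fold). Olr1, which binds oxidised lipoprotein, was at 141, 123, 137 and 169 CPM in the Thbs1 and Vegfa high cells of cKO-1, cKO-2, WT-1 and WT-2, against 91.7, 79.3, 69.6 and 91.7 CPM. Trem1 was higher in 3 of 4 libraries and lower in WT-2.

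Suppressive and repair genes held 11 of 15 genes higher in 4 of 4 libraries and 0 lower, with a median log2 ratio of 0.56. Arg1, arginase of suppressive myeloid cells, was at 136, 108, 93.3 and 149 CPM in the Thbs1 and Vegfa high cells of cKO-1, cKO-2, WT-1 and WT-2, against 32.9, 31.4, 34.1 and 18.3 CPM. Arg1 was seen in 19.8, 18.8, 18.3 and 15.1% of the cells, against 7.03, 6.39, 8.3 and 3.48% of the others and 2.94, 1.69, 2.98 and 2.21% of T cells. Cd274, the checkpoint ligand PD-L1, was at 267, 245, 324 and 189 CPM, against 128, 133, 162 and 106 CPM, and Hmox1, heme oxygenase, at 257, 139, 191 and 123 CPM, against 67.5, 73, 88.3 and 61.4 CPM. Slc7a11, the cystine importer, had a median ratio of 2.1, Havcr2, which encodes TIM-3, 1.58 and Lgals3, galectin-3, 1.47. Vsir, which encodes the checkpoint protein VISTA named in the series title, was mixed, at 185, 165, 185 and 119 CPM against 140.2, 126, 148 and 138 CPM, lower in WT-2 only among the 4 libraries.

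Myeloid transcription factors were split. Of 25 genes, 14 were higher and 4 lower in 4 of 4 libraries, with a median log2 ratio of 0.11. Ets2 had a median ratio of 1.91, Bhlhe40 1.84, Fosl2 1.64 and Cebpb 1.42. The lower ones were Irf8, a lineage factor of monocytes and dendritic cells (0.715), Spi1, which encodes PU.1 (0.82), Cebpd (0.704) and Egr1 (0.769). Type I interferon response genes held 7 of 17 higher and 0 lower, with a median of 0.14. Rsad2, the antiviral gene viperin, was at 341, 331, 474 and 270.4 CPM in cKO-1, cKO-2, WT-1 and WT-2, against 193, 189, 228 and 174 CPM, while Irf7 was mixed. With cells that carried other-lineage markers left out, 3 of the 17 were higher in 4 of 4 libraries.

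Antigen presentation genes were lower. Of 14 genes, 0 were higher and 11 lower in 4 of 4 libraries, with a median log2 ratio of -0.24. H2-Ab1, a chain of the MHC class II molecule, was at 589, 673, 371 and 503 CPM in the Thbs1 and Vegfa high cells of cKO-1, cKO-2, WT-1 and WT-2, against 1288, 1140.5, 675 and 844 CPM. Cd74, the invariant chain, was at 875, 1232, 609 and 836 CPM, against 1789.5, 2011, 985 and 1230.2 CPM, and Ciita, the master regulator of the class, at 19.2, 33.3, 17.7 and 25.9 CPM, against 61.5, 55.8, 40.1 and 39.3 CPM. The Thbs1 and Vegfa high cells were lower in each library for these genes. A UMI of H2-Aa, another class II gene, was seen in 55.2, 60.2, 54.2 and 73.6% of them, against 65.1, 64.2, 53.7 and 58.3% of the others. This share was lower in both cKO libraries and higher in both WT libraries. After thinning it was 37, 34.1, 27.6 and 47.8%, against 47.1, 47.7, 37.6 and 44.4%, higher in WT-2 only. The sum of 9 conventional dendritic cell markers was 100.5, 122, 152 and 93.2 CPM, against 228, 181, 124 and 182 CPM in the others, lower in 3 libraries and higher in WT-1. The class I genes H2-K1 and H2-D1 were lower by less (0.913 and 0.905).

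Genes for receptors of both proteins were not raised: of 8, 0 were higher and 4 lower in 4 of 4 libraries. Nrp1, a co-receptor for VEGF-A, was at 25.7, 26.7, 40.2 and 16.8 CPM in cKO-1, cKO-2, WT-1 and WT-2, against 60, 68.4, 71.4 and 66 CPM. Itga4 had a median ratio of 0.746, Itgb1 0.777 and Sirpa 0.914. Cd47, a receptor of thrombospondin-1, was mixed at 0.947, and so was Flt1, the VEGF receptor of monocytes, at 0.982. Of 7 proliferation genes 0 were higher and 4 lower, Mki67 among them at 14.3, 29.5, 26.6 and 14.2 CPM, against 47.5, 48.9, 29.5 and 37.3 CPM. A Mki67 UMI was seen in 13.5, 8.27, 13.3 and 15.1% of the Thbs1 and Vegfa high cells of cKO-1, cKO-2, WT-1 and WT-2, against 14.9, 11.5, 10 and 10.7% of the others, lower in both cKO libraries and higher in both WT libraries. Heat shock and stress genes held 2 of 12 higher, Ddit4 and Sqstm1, and 0 lower.

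**Figure D5:**
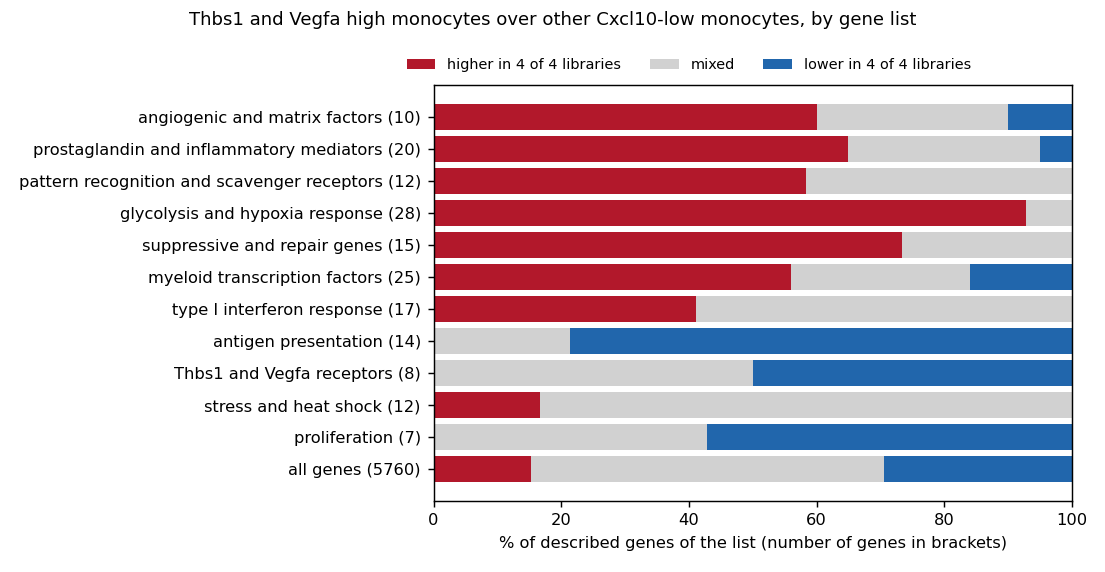
Share of each list's genes (x axis, %) that were higher, mixed or lower in Thbs1 and Vegfa high monocytes than in the other Cxcl10-low monocytes across 4 libraries, with the number of genes in brackets and all 5760 genes at the bottom. The glycolysis and hypoxia list has 26 of 28 higher, and antigen presentation 11 of 14 lower.

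The Thbs1 and Vegfa high cells varied among themselves, and the pattern depended on the gene that split them. Of these cells 71.9, 66.2, 65.8 and 69.8% in cKO-1, cKO-2, WT-1 and WT-2 had a Ptgs2 UMI. Those with Ptgs2 had 363, 177, 233 and 138 CPM of Hilpda, against 91.5, 64, 58.3 and 112 CPM in those without. For Cd14 the values were 861, 712, 553 and 524 CPM with Ptgs2, against 320.2, 318, 354 and 317 CPM without, and for Slc2a1 355, 187, 410.1 and 249 CPM, against 117, 163, 158 and 166 CPM. Cells with Ptgs2 were higher in each library for these 3 genes, at median depths of 13434, 13636, 11322 and 11874 UMIs, against 15136, 11687, 11445 and 10418.5 UMIs. Cells with an Arg1 UMI, 19, 25, 22 and 8 in number, were also higher for Hilpda in each library than cells without. Slc2a1 was mixed, at 208, 232, 270 and 359 CPM with Arg1, against 299, 166, 334 and 203 CPM without. Clec4e was at 396, 350, 215 and 827 CPM with Arg1, against 574, 373, 334 and 339 CPM without, higher in WT-2 only.

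The leading genes also separated cells with both transcripts in the other myeloid sets. Of the 25 leading genes, 24 were higher in 4 of 4 libraries in Cxcl10-high monocytes that passed the Thbs1 and Vegfa gates than in those that did not (median log2 ratio 1.42), and 23 in macrophages with C1q transcripts (1.34), beside 1.63 in the Cxcl10-low monocytes that chose them. Of the 28 glycolysis and hypoxia genes described, 27 were higher in Cxcl10-high monocytes and 25 in macrophages. Arg1 had a median log2 ratio of 1.53 in Cxcl10-high monocytes and of 2.62 in macrophages. Of the 15 genes with the lowest ratios, 7 were lower in 4 of 4 libraries in Cxcl10-high monocytes and 12 in macrophages. The share of all genes higher or lower in these comparisons was not computed. Of 25 myeloid transcription factors, 11 were higher in Cxcl10-high monocytes and 16 in macrophages, and of 14 antigen presentation genes 0 in either. Thbs1 and Vegfa counts split these cells too, so the values are a description without a test.

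Between the genotypes, no gene of the Thbs1 and Vegfa high monocytes passed the test. Of 8297 genes, 0 (0.0%) had an adjusted p under 0.05 in edgeR's quasi-likelihood test with Benjamini-Hochberg adjustment over the 4 summed libraries. Without adjustment, 324 genes had a p under 0.05, and DESeq2 called 1, Il1b. In each of the 11 lists 0 genes passed in either direction.

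Il1b, the gene DESeq2 called, was at 4920.5 and 4345 CPM in cKO-1 and cKO-2, against 2573 and 2661 CPM in WT-1 and WT-2, and the groups did not overlap. Il1b had a log2 fold change of 0.85 ± 0.17 (± standard error from the edgeR test, here and below, edgeR adjusted p = 0.417, DESeq2 adjusted p = 0.00957). Without WT-1 it passed in edgeR at 0.84 (adjusted p = 0.0445). The same gene was at 2671 and 2333 CPM in cKO-1 and cKO-2, against 1572 and 1540.4 CPM in WT-1 and WT-2 in the other Cxcl10-low monocytes and at 350.2 and 327 CPM in cKO-1 and cKO-2, against 154 and 153 CPM in WT-1 and WT-2 in T cells, which are not a known main source of it. Il1b had a UMI in 49.5 and 49.7% of T cells in cKO-1 and cKO-2, against 30.6 and 35.4% in WT-1 and WT-2. The part of the T-cell level in the value of the Thbs1 and Vegfa high cells was not tested.

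Mir155hg, the host gene of the inflammatory microRNA miR-155, was among the genes with the lowest p-values. It was at 31.4 and 27.8 CPM in cKO-1 and cKO-2, against 3.41 and 6.47 CPM in WT-1 and WT-2 (2.69 ± 0.48, adjusted p = 0.278), from 44, 51, 5 and 5 UMIs. The groups did not overlap, and the gene did not pass. The tetraspanin gene Cd9 had 1.02 ± 0.22, the costimulatory gene Cd80 0.97 ± 0.22 and the ubiquitin ligase gene March3 1.79 ± 0.39 (adjusted p of 0.731 to 0.774). Without cKO-2, Mir155hg, Cd9 and March3 passed in edgeR, at 2.78, 1.23 and 2.30. T cells had 60.5, 74.8, 70.8 and 56.1 CPM of Mir155hg in cKO-1, cKO-2, WT-1 and WT-2.

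The marker genes and the genes named in the series title had small values. Ptgs2 was at 1792 and 1201 CPM in cKO-1 and cKO-2, against 1345 and 827 CPM in WT-1 and WT-2 (0.49 ± 0.25), Cd14 at 693 and 594 CPM in cKO-1 and cKO-2, against 483 and 454 CPM in WT-1 and WT-2 (0.48 ± 0.19) and Clec4e had 0.39 ± 0.23 (edgeR adjusted p = 0.999 each). Cd14 was higher in both cKO libraries, while Ptgs2 and Clec4e overlapped. Ptgs2 had 0.15 without cKO-1 and 0.90 without WT-1, and Clec4e 0.07 without cKO-1 and 0.66 without cKO-2, none of which passed. Trim25 was at 227 and 231 CPM in cKO-1 and cKO-2, against 277 and 181 CPM in WT-1 and WT-2 (0.01 ± 0.22) and Vsir at 185 and 165 CPM in cKO-1 and cKO-2, against 185 and 119 CPM in WT-1 and WT-2 (0.21 ± 0.23), both with overlap. Thbs1 and Vegfa, which the gate chose, were each lowest in WT-2.

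By list, the median log2 fold changes stand beside -0.01 for all genes. Inflammatory mediators had 19 of 24 genes above 0 with a median of 0.36, pattern recognition receptors 9 of 13 with 0.37 and antigen presentation 13 of 14 with 0.14. H2-Ab1 had 0.56 ± 0.20 and Cd74 0.57 ± 0.22, with unadjusted p of 0.0161 and 0.0194. Glycolysis and hypoxia genes, which set these cells apart from the others, had 17 of 29 above 0 with a median of 0.03. The remaining medians lay between -0.11 (type I interferon response) and 0.48 (proliferation, 11 of 13 above 0).

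The count of called genes depended on single libraries. It was 32 without cKO-1, 38 without cKO-2, 48 without WT-1 and 2 without WT-2, and 76 without the filter on low counts. With 3 libraries, 1 genotype is a single library that is assumed to vary like the others.

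Among all Lyz2-high, C1q-low cells, taken without the Thbs1 and Vegfa gates, 0 of 15257 genes (0.0%) passed in edgeR, with 731 at an unadjusted p under 0.05 and 37 called by DESeq2. Of 8 markers of non-classical monocytes, 8 lay below 0 in the same fit and 0 passed, with log2 fold changes of -0.89 (Ace) to -0.02 (Cd300e). Ace was at 33.3 and 35.6 CPM in cKO-1 and cKO-2, against 54.1 and 72.6 CPM in WT-1 and WT-2 (-0.89 ± 0.15, unadjusted p = 0.000856), and Adgre4 at 99.5 and 88.5 CPM in cKO-1 and cKO-2, against 159 and 181 CPM in WT-1 and WT-2 (-0.86 ± 0.11, unadjusted p = 0.000133), with edgeR adjusted p of 0.987 and 0.675. The part of these cells in the other values was not tested. All 5 marker genes of the Thbs1 and Vegfa high cells lay above 0. Ptgs2 was at 493 and 420.1 CPM in cKO-1 and cKO-2, against 286 and 199.7 CPM in WT-1 and WT-2 (0.89 ± 0.19, unadjusted p = 0.00299) and Cd14 at 307 and 263 CPM in cKO-1 and cKO-2, against 198 and 165 CPM in WT-1 and WT-2 (0.63 ± 0.14, unadjusted p = 0.00291), edgeR adjusted p = 0.987 each. DESeq2 called both, with adjusted p of 0.00114 and 0.0147. Thbs1 was at 649.5 and 550.0 CPM in cKO-1 and cKO-2, against 469 and 335 CPM in WT-1 and WT-2 (0.56 ± 0.19, unadjusted p = 0.023). Vegfa was at 102 and 97.8 CPM in cKO-1 and cKO-2, against 76 and 29.1 CPM in WT-1 and WT-2 (0.91 ± 0.40, unadjusted p = 0.0618), and Clec4e had 0.32 ± 0.11 (unadjusted p = 0.0242). Single libraries moved these values. Without WT-1, Vegfa passed at 1.78 (edgeR adjusted p = 0.0226), and without WT-2, the library with the lowest level, it had 0.37 (0.664). Ptgs2 passed without cKO-2 at 0.97 (edgeR adjusted p = 0.0185). Of the glycolysis and hypoxia list 28 of 30 genes lay above 0, with a median of 0.27 and 0 called, beside 7749 of all 15257 genes with a median of 0.0037. Without cKO-1, cKO-2, WT-1 and WT-2 in turn the calls over all genes were 19, 180, 2 and 0.

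Whether the genotype difference itself differed between the Thbs1 and Vegfa high cells and the other Cxcl10-low monocytes was tested as an interaction. Of 11800 genes 7 (0.0593%) passed, with 627 at an unadjusted p under 0.05. The genotype difference was lower in the Thbs1 and Vegfa high cells for 6 of them (0.0508%), Col6a1, Sparc, Edil3, Pxdn, Brinp3 and Tenm3, and higher for 1 (0.00847%), the chemokine gene Ccl17. Collagen VI and osteonectin genes such as Col6a1 and Sparc belong to stromal and tumour cells. A single WT-2 cell held 304 of the 306 UMIs of these 6 genes in the Thbs1 and Vegfa high cells of that library, and a single cKO-2 cell held all 239 Ccl17 UMIs in the Thbs1 and Vegfa high cells. With cells that carried other-lineage markers left out, 0 of 9297 genes passed. Of the 7 genes only Edil3 was tested there (-1.48, edgeR adjusted p = 0.999), and the other 6 fell below the filter on low counts. DESeq2 called 5 genes, among them 4 of the 7 (Col6a1, Sparc, Pxdn and Edil3). None of the 5 marker genes passed in edgeR with all cells. Without cKO-1, cKO-2, WT-1 and WT-2 in turn, 29, 64, 36 and 11 genes passed.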

How the data were processed

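The authors deposited raw UMI counts per gene and cell barcode, 1 matrix of whole numbers per library, not normalized. The submitters' processing notes name Cell Ranger, STAR and mm10, with no version. The labels name a v3 kit, and barcodes have 20 letters. The cells, members and gene lists were chosen with earlier results of these data known. Kept cells had at least 300 genes, 500 UMIs and at most 15% mitochondrial UMIs. Scrublet's automatic threshold called 0 doublets in each library and had not worked, so scores above 0.2 were left out as an alternative only. Raw UMIs were summed per library and cell set and tested with edgeR 4.0.16 (TMM, filterByExpr, quasi-likelihood F test, Benjamini-Hochberg) in R 4.3.3, with DESeq2 1.42.0 as an alternative, and tested on simulated data with known changes. Levels are CPM of those sums, and log2 ratios use a pseudocount of 1 CPM. A value after ± beside a log2 fold change is a standard error derived from the quasi-likelihood F statistic, not an SD between libraries. Named genes are the 25 highest and 15 lowest median ratios with the same sign in 4 of 4 libraries and a mean of at least 20 CPM, genes called between genotypes, the markers and list members. Il1b, Mir155hg, Cd9, Cd80 and March3 were named after their values were seen, for low p-values. Shares were compared by an exact permutation test. Python 3.11.15, numpy 2.4.6, scipy 1.17.1, pandas 2.3.3 and scanpy 1.11.5 were used. Positions are from GENCODE on GRCm38, and 32235 of 32285 gene IDs matched. Clec7a, Mx1, Aldoa and Ddit3 are not reported here.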

Additional observations from a re-analysis of the deposited data

Results flagged for a closer look

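The genotype effect differed between Thbs1 and Vegfa high monocytes and the other Cxcl10-low monocytes in 7 genes by the interaction test in edgeR. The log2 difference was -5.50 for Col6a1 (adjusted p = 0.0023), -5.53 for Sparc (0.00901), -3.20 for Edil3 (0.0207), -6.20 for Pxdn (0.0245), -6.14 for Brinp3 (0.0396), -5.96 for Tenm3 (0.0401) and 12.48 for Ccl17 (0.0395). Of the first 6 genes, the Thbs1 and Vegfa high cells of cKO-1, cKO-2, WT-1 and WT-2 held 29, 29, 36 and 306 UMIs in all, and 304 of the last were in 1 cell. The other Cxcl10-low monocytes held 1349, 651, 85 and 942 UMIs, of which 859, 572, 11 and 787 were in the 3 cells with the most. Tumour or fibroblast-like markers summed to 45.3 CPM in the Thbs1 and Vegfa high cells of WT-2 and to 83.8 CPM in the other monocytes of cKO-1, the highest library of each set. Ccl17, a chemokine of dendritic cells, had 0, 239, 0 and 0 UMIs in the Thbs1 and Vegfa high cells, all in 1 cell of cKO-2, so its fitted value depends on the prior count and is no bound. DESeq2 called 5 genes, among them 4 of these 7. Without cells of other-lineage markers 0 of 9297 genes passed in edgeR, where only Edil3 of the 7 was tested, at -1.48 (adjusted p = 0.999).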

How the results depend on the processing

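The share difference between cKO and WT of 2.34 percentage points stayed above 0 in each alternative run, from 0.487 points with all cells as denominator to 6.13 points with Cxcl10-low monocytes as denominator, and from 1.35 to 3.32 points with 1 library left out. Points depend on the size of the denominator. As cKO over WT, the means had a ratio of 2.02 in the main run, 1.60 with all cells and 1.85 with Cxcl10-low monocytes, a denominator that was not planned. No exact permutation p went below 0.333. The count of 0 called genes in the Thbs1 and Vegfa high cells became 1 with DESeq2, 76 without the filter on low counts and 2 with at least 2 Vegfa UMIs required, and 2 to 48 with 1 library left out. For all Lyz2-high, C1q-low cells the 0 became 37 with DESeq2, 183 without the filter and 0 to 180 with 1 library left out. The 7 interaction calls became 95 without the filter, 4 with doublets left out, 1 without neutrophil marker cells, 0 without other-lineage marker cells, 0 with thinned cells and 11 to 64 with 1 library left out. Of the 7 genes only Edil3 was tested without other-lineage marker cells (9297 genes tested), and only Col6a1 and Edil3 with thinned cells (8951 tested), so these settings do not bear on the others. The cause of these changes was not tested beyond the construction of each setting, and DESeq2 and edgeR without the filter tested other numbers of genes.

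The replicate number served as a block in an alternative fit, with 2 genes called in the Thbs1 and Vegfa high cells, 0 in all Lyz2-high, C1q-low cells and 81 in the interaction. The mean share difference with the replicate block was 2.34 points, with an exact sign-flip p of 0.5. Same-numbered libraries correlated at 0.09 in their deviations over the Thbs1 and Vegfa high cells and at -0.27 over all Lyz2-high, C1q-low cells, no label says that a number marks a pair, and a block crossed over the numbers, chosen after seeing the data, called 49 genes in those cells.

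Signs turned for Trim25 in the Thbs1 and Vegfa high cells (-0.16 without other-lineage marker cells, -0.033 with at least 2 Vegfa UMIs, and -0.25 to 0.38 with 1 library left out, lowest without WT-2) and for Vsir (-0.053 to 0.59, lowest without WT-2). Vsir over all Lyz2-high, C1q-low cells turned to 0.042 without other-lineage marker cells and 0.049 with thinned cells, and ranged from -0.13 to 0.12 with 1 library left out. Tenm3 in the interaction ranged from -6.40 to 1.40, above 0 without WT-2. Of 44 list counts against the other Cxcl10-low monocytes under other cell selections, all chosen after seeing the data, 42 stayed within 1.5 times. With 53 Thbs1 and Vegfa high cells in WT-2 and 2 libraries per genotype, the number of libraries limits the precision.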

Other observations

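Some transcripts of the Thbs1 and Vegfa high monocytes were uneven between libraries without following the genotype. Spp1, osteopontin, was at 409 and 512 CPM in cKO-1 and cKO-2, against 139 and 847 CPM in WT-1 and WT-2, with 1 WT-2 cell at 323 UMIs. Cxcl3, a neutrophil attractant, was at 48.5 and 0 CPM in cKO-1 and cKO-2, against 172 and 0 CPM in WT-1 and WT-2. Nos2, inducible nitric oxide synthase, was at 17.8 and 8.73 CPM in cKO-1 and cKO-2, against 61.3 and 10.4 CPM in WT-1 and WT-2.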
